A study of Oryza sativa with 10 samples.

Results

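Roots of rice (Oryza sativa, cultivar Illmi) that carried 1 of 2 related transgenes were compared directly: the OsNAC6 line, labelled RCc3:OsNAC6-myc, and the OsNAC5 line, labelled RCc3:myc-OsNAC5. Each line was given by 2 RNA-Seq libraries according to the sample titles, so the comparison rests on 4 of the 10 libraries of the series. The plants of both lines and of the non-transgenic control (NT, 2 libraries) were 20 days old per the labels, and the NT values are given beside the lines only to place them. In both lines the coding sequence was driven by the promoter of RCc3, a gene expressed in roots, and was fused to a MYC epitope, which the titles place after OsNAC6 and before OsNAC5. Plants chosen for high tagged protein were used, and how many transformation events stand behind each pair of libraries was not given in the sources used here. An effect of the factor therefore cannot be told apart from one of the insertion site, the position of the tag or the amount of protein. The labels call the growth conditions normal, while the study's methods describe seedlings kept under water before the harvest of roots. The study calls the 2 libraries of a group biological replicates.

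NAC proteins are transcription factors of plants with a conserved DNA-binding domain at their N-terminal end and a variable C-terminal region that regulates transcription. OsNAC5 and OsNAC6 belong to the stress-responsive branch of the family, whose members are induced by drought, salt and abscisic acid in rice and bind promoters that contain the core letters CACG. Their overexpression in roots has been studied for drought tolerance, and the comparison here addresses which transcripts differ between plants that carry either factor from the same promoter.

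The values are FPKM, that is fragment numbers scaled to transcript length and to the mapped fragments of the library, so levels are per length. A difference is the mean of log2(FPKM + 1) in OsNAC6 roots minus that in OsNAC5 roots, which understates the change of transcripts near 1 FPKM. A transcript was called higher or lower in OsNAC6 roots where limma gave a Benjamini-Hochberg adjusted p under 0.05 and the difference was at least 1.5 fold. Totals lay between 751247 and 789304 FPKM in OsNAC6 libraries and between 742051 and 755813 FPKM in OsNAC5 libraries, and rough relative depths read from low values were 0.772 and 1.07 in OsNAC6 libraries relative to OsNAC5 replicate 1, against 1.03 in OsNAC5 replicate 2. The OsNAC6 libraries stood further apart than any other pair. They differed by more than 1.5 fold in 8.27% of the tested transcripts, against 2.71% for the OsNAC5 pair and 1.34% for the NT pair. Across transcripts, OsNAC6 replicate 2 had a Pearson correlation of log2 values of 0.9832 with OsNAC6 replicate 1 and of 0.9854 with OsNAC5 replicate 1, while the OsNAC5 libraries had 0.9922 with each other. RCc3 itself was high in every root library, with 2571 and 1872 FPKM in OsNAC6 roots, against 2367 and 2353 FPKM in OsNAC5 roots, and so were the silicon transporters Lsi1 and Lsi2, which work in root cells. Lsi1 had 912 and 617 FPKM in OsNAC6 roots, against 722 and 715 FPKM in OsNAC5 roots. Lsi2 had 390.2 and 244 FPKM in OsNAC6 roots, against 302 and 356 FPKM in OsNAC5 roots. None of these 3 root markers was called. Markers of green tissue, the other tissue that a root harvest could hold, summed to 64.4 and 53.8 FPKM over 37 photosynthesis transcripts in OsNAC6 roots, against 70.4 and 69.5 FPKM in OsNAC5 roots. Of these 37, 2 were called lower (5.41%, against 2.72% called over all tested transcripts). Whether fewer cells of a type or less RNA per cell lie behind a difference cannot be told apart in such bulk samples.

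The genes named by the labels differed in the direction of the labels. OsNAC6 (Os01t0884300-01, chromosome 1) had 129 and 123 FPKM in OsNAC6 roots, against 76.0 and 81.2 FPKM in OsNAC5 roots, and the libraries of the lines did not overlap (log2 difference 0.67 ± 0.09 SE, adjusted p = 0.00928). NT roots held 96.5 and 96.4 FPKM, so that the level in OsNAC5 roots was the lowest of the 3. OsNAC6 roots were above NT by a log2 difference of 0.38, which is under the 1.5 fold rule. The OsNAC9 and OsNAC10 lines, at means of 75.6 and 82.5 FPKM, were near the OsNAC5 level. The call between the 2 lines was lost when only the 4 libraries entered the fit (adjusted p = 0.163). It was also lost without OsNAC5 replicate 1 (log2 difference 0.62) and without OsNAC5 replicate 2 (0.72). OsNAC5 (Os11t0184900-02, chromosome 11) had 16.7 and 20.9 FPKM in OsNAC6 roots, against 145 and 154 FPKM in OsNAC5 roots, a far wider gap (log2 difference -2.94 ± 0.10 SE, adjusted p = 1.6e-05). With 46.1 and 44.5 FPKM in NT roots, its level lay above NT in the OsNAC5 line and below NT in the OsNAC6 line. Fragments of the transgene and of the resident gene fall on the same transcript and cannot be told apart here. The genes of the other 2 factors of the series were not called. OsNAC9 (Os03t0815100-01) had 35.7 and 23.4 FPKM in OsNAC6 roots, against 40.6 and 48.7 FPKM in OsNAC5 roots (adjusted p = 0.148). OsNAC10 (Os11t0126900-01) had 25.0 and 22.9 FPKM in OsNAC6 roots, against 22.4 and 22.1 FPKM in OsNAC5 roots (adjusted p = 0.481).

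**Figure D1:**
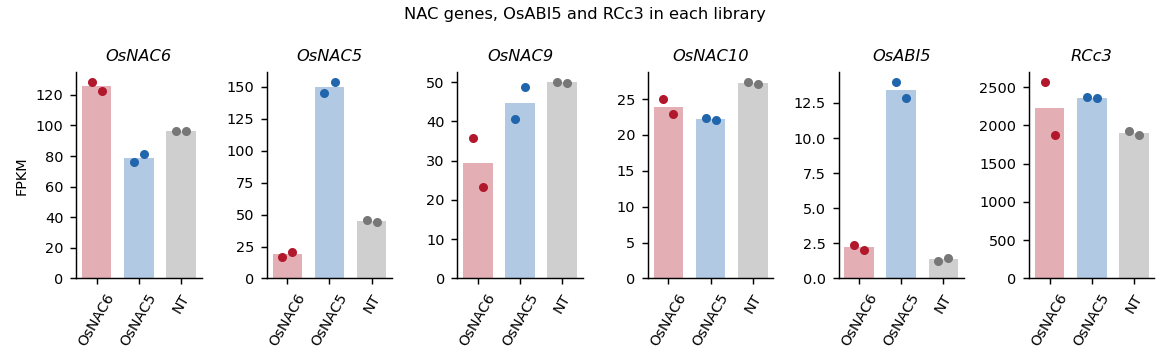
FPKM of the 4 NAC genes of the series, OsABI5 and RCc3 in each library of OsNAC6, OsNAC5 and NT roots; points are libraries, bars are means of 2 libraries, and each panel has its own linear axis from 0. The OsNAC5 gene and OsABI5 stand highest in the OsNAC5 libraries, at 145 and 154 FPKM and at 14.0 and 12.8 FPKM, whereas RCc3 overlaps between the lines.

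Across the transcriptome, 384 transcripts (1.16% of those tested) were higher and 517 (1.56%) were lower in OsNAC6 roots, 901 in all (2.72%). They came from 381 and 512 loci. At least 2 fold separated 144 higher and 135 lower transcripts, and at least 4 fold separated 24 and 14. The libraries of the lines did not overlap for any of the 901, whereas both OsNAC6 libraries lay above both OsNAC5 libraries for 19.9% of all tested transcripts and below them for 25.0%. The called transcripts were spread over the genome, with between 2.29% (chromosome 3) and 3.18% (chromosome 11) of the tested transcripts of a chromosome. Set against NT by the same rule, 5.22% of the tested transcripts were higher and 7.0% lower in OsNAC6 roots, and 1.6% were higher and 2.51% lower in OsNAC5 roots. A shared estimate of the spread over all 5 groups was used, and with only the 4 libraries in the fit 19 transcripts were higher and 11 lower. Without OsNAC6 replicate 1 the counts were 285 higher and 505 lower, without OsNAC6 replicate 2 they were 1010 and 1113, without OsNAC5 replicate 1 they were 138 and 179, and without OsNAC5 replicate 2 they were 146 and 130. Of the 901 transcripts, 765 kept a 1.5 fold difference in the same direction without OsNAC6 replicate 1 and 811 did so without OsNAC6 replicate 2.

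**Figure D2:**
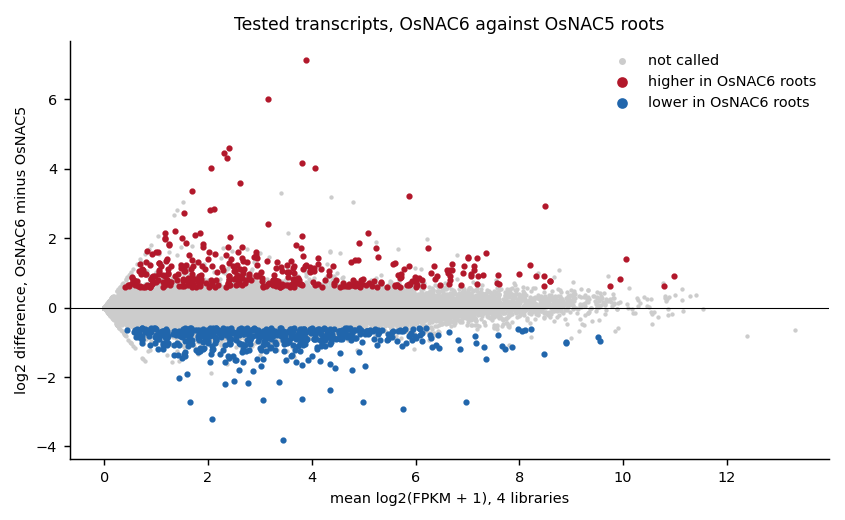
Each point is a tested transcript; the horizontal axis is its mean log2(FPKM + 1) over the 4 libraries and the vertical axis is the log2 difference, OsNAC6 minus OsNAC5. The 384 called higher transcripts are red, the 517 called lower are blue, and the rest are grey.

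Sequence regions were taken for 3 of the genes described here, because the study's table of immunoprecipitated regions lists each with the anti-MYC antibody in roots of a line compared here. They are shown to give the letters at these loci, on the build named in the labels, IRGSP 1.0, in the strand of the table, which gives none. Capitals mark CACG, the NAC core, or its reverse complement CGTG. Neither overlapped the letters ACGTG or CACGT of abscisic acid response elements in these regions.
OsABI5 promoter, chr1:37173201-37173400, OsNAC6 roots: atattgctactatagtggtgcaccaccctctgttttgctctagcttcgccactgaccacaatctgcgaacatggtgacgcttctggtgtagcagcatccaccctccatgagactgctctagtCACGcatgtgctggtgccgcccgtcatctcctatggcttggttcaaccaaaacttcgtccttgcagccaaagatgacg
Peroxidase Os04g0656800 promoter, chr4:33506979-33507178, OsNAC6 roots: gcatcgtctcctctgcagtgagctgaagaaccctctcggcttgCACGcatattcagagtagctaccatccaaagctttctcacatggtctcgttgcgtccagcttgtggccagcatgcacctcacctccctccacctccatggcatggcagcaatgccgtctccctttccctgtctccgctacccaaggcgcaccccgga
Glutamine synthetase Os03g0712800 intron, chr3:28825011-28825166, OsNAC5 roots: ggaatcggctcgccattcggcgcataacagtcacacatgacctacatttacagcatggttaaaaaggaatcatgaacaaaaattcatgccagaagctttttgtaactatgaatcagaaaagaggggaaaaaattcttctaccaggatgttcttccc
The promoter regions of OsABI5 and of the peroxidase each held CACG once, and the intron region of the glutamine synthetase held neither form. Of the 618 regions of the table as held here, which is part of it, 55.5% had CACG or CGTG within their central 146 bases, the length of the shortest region. A match of these letters is a description and not a measured site.

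The first of these genes, OsABI5 (Os01t0859300-01), encodes a bZIP factor of abscisic acid signalling and was 1 of the 10 transcripts furthest below OsNAC5 roots in OsNAC6 roots. It had 2.36 and 2.05 FPKM in OsNAC6 roots, against 14.0 and 12.8 FPKM in OsNAC5 roots (log2 difference -2.17 ± 0.11 SE, adjusted p = 9.28e-05), whereas NT roots held 1.26 and 1.44 FPKM. The OsNAC6 libraries were thus above NT, with a difference in log2(FPKM + 1) of 0.45. That is under the 1.5 fold rule, but the scale understates a change near 1 FPKM. The OsNAC5 libraries were well above NT (2.62). The OsNAC9 line, at a mean of 6.43 FPKM, lay between the OsNAC6 and OsNAC5 lines. The study lists OsABI5 as a target of OsNAC5, OsNAC6 and OsNAC9, so the region printed for OsNAC6 roots does not set the lines apart. In the study's protoplast assay, OsNAC5, OsNAC6 and OsNAC9 each activated a reporter with the OsABI5 promoter, and OsNAC10 did not. The peroxidase Os04t0656800-01 went the other way, with 42.6 and 40.4 FPKM in OsNAC6 roots, against 22.0 and 23.7 FPKM in OsNAC5 roots (log2 difference 0.83 ± 0.08 SE, adjusted p = 0.00256). The glutamine synthetase transcript Os03t0712800-02, an enzyme that fixes ammonium into glutamine, had 4.80 and 3.20 FPKM in OsNAC6 roots, against 20.6 and 20.8 FPKM in OsNAC5 roots (log2 difference -2.14 ± 0.18 SE, adjusted p = 0.00111) and 1.13 and 1.49 FPKM in NT roots.

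The largest differences in the higher direction were mostly for transcripts near 0 FPKM in OsNAC5 roots. Os10t0328100-00, a conserved hypothetical protein, had 227 and 134 FPKM in OsNAC6 roots, against 0.104 and 0.411 FPKM in OsNAC5 roots (log2 difference 7.14 ± 0.25 SE, adjusted p = 1.6e-05). A second conserved hypothetical protein, Os07t0442800-01, had 71.0 and 69.6 FPKM in OsNAC6 roots, against 0.0911 and 0.139 FPKM in OsNAC5 roots, with OsNAC6 libraries almost level with each other (log2 difference 6.00 ± 0.08 SE, adjusted p = 5.98e-08). NT roots held 0.126 and 0.477 FPKM of the first, near the OsNAC5 level. Of the second they held 0.917 and 0.819 FPKM, and OsNAC5 roots were called lower than NT by limma (log2 difference -0.74, adjusted p = 0.00127). Against OsNAC5 roots, OsNAC6 roots were also higher for 3 more proteins without a known function, Os04t0115200-01 (difference 4.59), Os10t0381601-01 (4.44) and Os12t0515800-01 (4.30), and for the non-protein coding transcripts Os08t0389601-01 (3.58) and Os07t0545400-02 (3.22).

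Neighbouring transcripts on chromosome 2 completed the group. Os02t0765900-00, described as similar to ferredoxin-nitrite reductase, the enzyme that turns nitrite into ammonium in plastids, had 19.6 and 12.6 FPKM in OsNAC6 roots, against 0.0301 and 0.0219 FPKM in OsNAC5 roots (log2 difference 4.03 ± 0.18 SE, adjusted p = 4.34e-05). NT roots held 1.49 and 1.64 FPKM, between the lines. The hypothetical protein Os02t0765925-00, whose identifier is adjacent, had 72.9 and 46.2 FPKM in OsNAC6 roots, against 2.62 and 2.03 FPKM in OsNAC5 roots and was also between them in NT roots, at 7.93 and 8.77 FPKM. Reads of overlapping genes may be shared, because it is not known if the counting used strand. A germin-like protein on chromosome 8, Os08t0189100-01, had 65.2 and 67.4 FPKM in OsNAC6 roots, against 3.22 and 3.01 FPKM in OsNAC5 roots (log2 difference 4.03 ± 0.13 SE, adjusted p = 1.6e-05). Germin-like proteins are cell wall proteins of the cupin family.

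In the lower direction the leading transcript was Os03t0183600-00, similar to alanine aminotransferase, which exchanges amino groups between alanine and glutamate. It had 1.60 and 2.29 FPKM in OsNAC6 roots, against 38.8 and 40.8 FPKM in OsNAC5 roots (log2 difference -3.80 ± 0.13 SE, adjusted p = 1.6e-05), and 3.56 and 3.64 FPKM in NT roots. Os04t0574700-01, of a family of C4-dicarboxylate and malic acid transporters, had 0.406 and 0.388 FPKM in OsNAC6 roots, against 11.1 and 12.6 FPKM in OsNAC5 roots (log2 difference -3.20 ± 0.12 SE, adjusted p = 1.6e-05). With NT roots at 0.0707 and 0.125 FPKM, the OsNAC5 line stood apart from both. Fructose-bisphosphate aldolase, the glycolytic enzyme that splits fructose bisphosphate, gave the largest gap in FPKM among these lower transcripts. Its transcript Os08t0120600-01 had 54.4 and 41.9 FPKM in OsNAC6 roots, against 288 and 353 FPKM in OsNAC5 roots (log2 difference -2.71 ± 0.19 SE, adjusted p = 0.00046), and 38.2 and 40.0 FPKM in NT roots. The DUF538 protein Os11t0241700-01 (-2.63), the hypothetical protein Os06t0200800-01 (-2.37) and the transferase Os02t0483500-01 (-2.20) were also well above NT in OsNAC5 roots.

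Other transcripts of this direction were highest in NT roots and lowest in OsNAC6 roots among the 3 groups shown. The EF hand protein Os09t0482800-01, of a family that binds calcium, had 2.04 and 2.57 FPKM in OsNAC6 roots, against 18.7 and 21.1 FPKM in OsNAC5 roots (log2 difference -2.66 ± 0.12 SE, adjusted p = 5.57e-05), and 39.2 and 41.6 FPKM in NT roots. A physical impedance induced protein, Os03t0103200-01, had 13.9 and 9.43 FPKM in OsNAC6 roots, against 72.4 and 89.9 FPKM in OsNAC5 roots (log2 difference -2.71 ± 0.18 SE, adjusted p = 0.000381), and 155 and 156 FPKM in NT roots. Both lines were thus below NT for these transcripts, the OsNAC6 line further so.

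**Figure D3:**
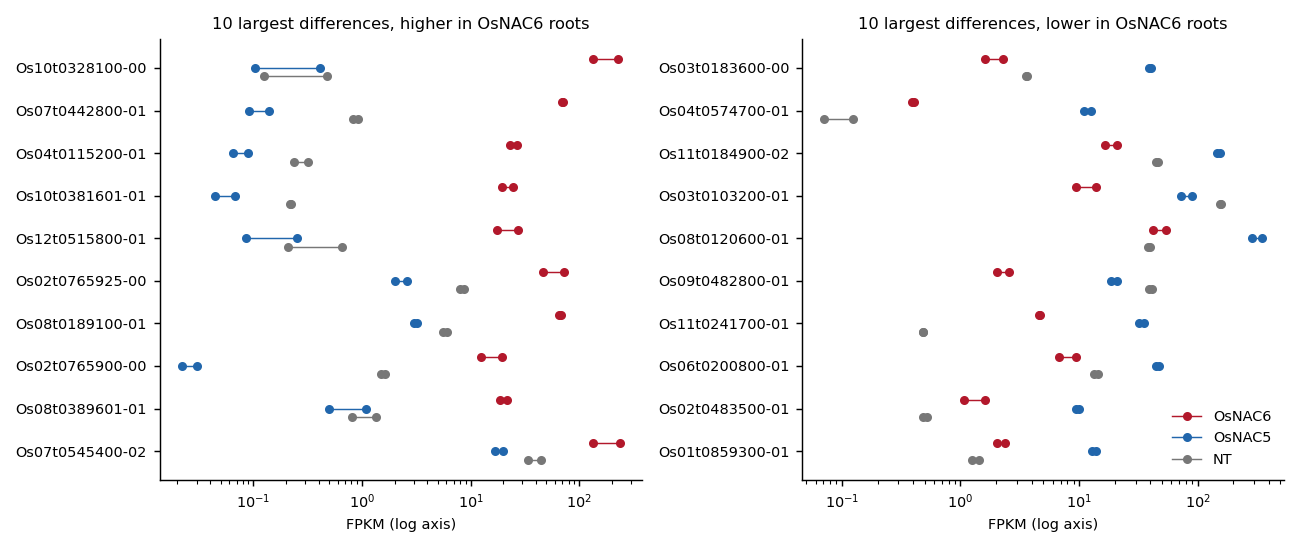
FPKM on a log axis for the 10 transcripts with the largest difference in each direction; points are the libraries of OsNAC6 (red), OsNAC5 (blue) and NT (grey) roots, joined within a group. In the left panel the OsNAC6 libraries lie right of the OsNAC5 libraries, up to 239 FPKM, and in the right panel they lie left of them.

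Among carbon and nitrogen enzymes, several central steps were lower in OsNAC6 roots. Of 108 tested transcripts for glycolysis and ethanol fermentation, 7 were lower and 1 was higher, with a median difference of -0.09, against -0.02 over all tested transcripts. The called share was 7.41%, against 2.72% over all tested transcripts. This list was added after the values had been seen. Cytosolic glyceraldehyde-3-phosphate dehydrogenase Os02t0601300-01, which follows aldolase in glycolysis, had 594 and 492 FPKM in OsNAC6 roots, against 1069 and 1035 FPKM in OsNAC5 roots. Alcohol dehydrogenase Os11t0210500-01, the last enzyme of ethanol fermentation, had 148 and 128 FPKM in OsNAC6 roots, against 309.5 and 291 FPKM in OsNAC5 roots (log2 difference -1.12 ± 0.10 SE, adjusted p = 0.00167), and 518 and 548 FPKM in NT roots. Glucose-6-phosphate isomerase Os06t0256500-01 (-0.91), enolase Os06t0136600-01 (-0.80), a further glyceraldehyde-3-phosphate dehydrogenase Os02t0171100-01 (-0.65) and phosphoglucomutase Os03t0712700-01 (-0.62) were lower too. The transcript that was higher encodes a pyruvate kinase domain, Os12t0189300-01 (0.70). The counts were 1 higher and 7 lower without OsNAC6 replicate 1, and 2 higher and 8 lower without OsNAC6 replicate 2. A hemoglobin of the non-symbiotic class, Os03t0226200-01, a class induced by low oxygen in many plants, was higher, with 209 and 160.0 FPKM in OsNAC6 roots, against 79.3 and 80.5 FPKM in OsNAC5 roots (log2 difference 1.19 ± 0.14 SE, adjusted p = 0.00537). It was the only called member of 18 low oxygen transcripts (5.56%). Of these 18, only 4 had a positive difference, and the median was -0.12. The alcohol dehydrogenase above was counted with fermentation and not in this list.

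For nitrogen, the list of nitrate and ammonium uptake and assimilation had 2 higher and 2 lower of 38 transcripts (median 0.02). The called share was 10.5%, against 2.72% over all tested transcripts. Both lower members were root glutamine synthetases, the transcript described with its intron region and Os03t0223400-01, which had 164 and 119 FPKM in OsNAC6 roots, against 319 and 322 FPKM in OsNAC5 roots (log2 difference -1.20 ± 0.17 SE, adjusted p = 0.0099). The higher members were the nitrite reductase of chromosome 2 and an ammonium transporter, Os03t0838400-02 (0.59). For phosphate, an SPX domain protein, a class that senses phosphate status, was the only called member of 31 (3.23%, near the share over all). Its transcript Os02t0202200-01 had 6.14 and 6.80 FPKM in OsNAC6 roots, against 0.153 and 0.0992 FPKM in OsNAC5 roots (log2 difference 2.73 ± 0.13 SE, adjusted p = 6.51e-05), and 8.87 and 8.50 FPKM in NT roots, so that of the 3 groups the OsNAC5 roots stood apart; the OsNAC9 and OsNAC10 lines were also below NT, at means of 1.00 and 0.324 FPKM. For sulfate, a list that was also added after the values had been seen, 4 of 31 transcripts were lower and 1 was higher (16.1% called, median -0.11). The lower ones were a sulfate transporter, Os03t0196000-00 (-0.99), a cysteine synthase, Os06t0149900-01 (-0.90), an ATP sulfurylase, Os03t0743900-01 (-0.68), and a gamma-glutamylcysteine synthetase, Os05t0129000-01 (-0.64). The sulfate transporter Os01t0719300-01 went the other way (1.19). In the iron list, 2 of 18 transcripts were lower (11.1% called), an iron-phytosiderophore transporter, Os02t0650300-01 (-0.72), and a nicotianamine aminotransferase, Os02t0302700-01 (-0.67). A tonoplast aquaporin, Os02t0658100-01, which moves water across the vacuole membrane, had 369 and 307 FPKM in OsNAC6 roots, against 667 and 666 FPKM in OsNAC5 roots (log2 difference -0.98 ± 0.11 SE, adjusted p = 0.00499), and 304 and 313 FPKM in NT roots. No other of the 29 tested aquaporins was called (3.45%, near the share over all). The list leaned the other way, with 19 positive differences and a median of 0.14.

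Most called transcription factor transcripts were lower in OsNAC6 roots. Of 98 AP2/ERF transcripts, the family of ethylene response and dehydration response factors, 11 were lower and 1 was higher (median -0.08), and the counts were 0 higher and 10 lower without OsNAC6 replicate 1, and 1 higher and 8 lower without OsNAC6 replicate 2. The lower ones included 5 DREB1 factors, which bind the dehydration response element and act in cold and drought responses. The DREB1 transcripts Os09t0522000-01, Os09t0522100-00 and Os09t0522200-01 form a run on chromosome 9. Os09t0522000-01 had 5.17 and 9.04 FPKM in OsNAC6 roots, against 24.4 and 23.6 FPKM in OsNAC5 roots (log2 difference -1.67 ± 0.21 SE, adjusted p = 0.00708). The differences of the others were -1.01 and -1.06, and those of Os06t0127100-01 and Os02t0676800-01 were -0.87 and -0.82. Os08t0474000-01, similar to RAP2.6, had 4.39 and 2.82 FPKM in OsNAC6 roots, against 8.90 and 10.5 FPKM in OsNAC5 roots, and 12.8 and 14.2 FPKM in NT roots. The higher member was an ERF, Os09t0571700-00 (0.75). In all, 12.2% of the AP2/ERF list was called, against 2.72% over all tested transcripts.

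Among 74 NAC transcripts, 3 were higher and 4 were lower, the transgenes' own genes included. Os01t0925400-01 had 77.0 and 63.8 FPKM in OsNAC6 roots, against 32.6 and 43.8 FPKM in OsNAC5 roots (log2 difference 0.88 ± 0.18 SE, adjusted p = 0.0383) and Os10t0477600-01, similar to CUC2, had a difference of 0.91. Lower were OsNAC3, Os07t0225300-01 (-0.60), Os01t0261200-01 (-0.66) and Os02t0810900-01 (-1.21). For other families the share called was near the 2.72% over all tested transcripts, 3.45% of WRKY, 3.77% of bHLH and 2% of bZIP transcripts. Their called members were lower, for WRKY factors (3 of 87), bHLH factors (4 of 106) and bZIP factors (1 of 50), while 3, 5 and 4 transcripts of these lists were above 0 at an unadjusted p under 0.05. OsABI5 is annotated as an abscisic acid response element binding factor and was counted with the abscisic acid transcripts, so the bZIP transcript here was Os02t0191600-00, with 4.90 and 5.91 FPKM in OsNAC6 roots, against 13.3 and 14.6 FPKM in OsNAC5 roots (log2 difference -1.22 ± 0.13 SE, adjusted p = 0.00387). Of 124 MYB transcripts, 4 were lower and 1 was higher, Os11t0632200-01 (1.16). Without OsNAC6 replicate 2, WRKY factors had 3 higher and 5 lower.

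Cell wall and secreted proteins were called in both directions. Of the germin-like proteins 31.8% were called, against 2.72% over all tested transcripts. Germin-like proteins had 6 lower and 1 higher of 22 (median -0.34), and the counts were 1 higher and 5 lower without OsNAC6 replicate 1, and 1 higher and 6 lower without OsNAC6 replicate 2. The higher one was the chromosome 8 transcript above. A germin-like transcript with a nearby identifier, Os08t0189400-00, was lower, with 2.15 and 1.80 FPKM in OsNAC6 roots, against 4.19 and 4.16 FPKM in OsNAC5 roots. Reads of such similar copies may be split between them. The most abundant lower member was Os08t0231400-01, germin-like protein 8-12, with 134 and 155 FPKM in OsNAC6 roots, against 245 and 259 FPKM in OsNAC5 roots. Os02t0532500-01, a germin family protein, had 56.5 and 57.3 FPKM in OsNAC6 roots, against 117 and 126 FPKM in OsNAC5 roots, and 38.1 and 38.1 FPKM in NT roots.

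Class III peroxidases, secreted enzymes that act on lignin precursors and hydrogen peroxide, had 9 lower and 3 higher of 131 (9.16% called, against 2.72% over all tested transcripts, median 0.04). This balance turned on 1 library, since the counts were 2 higher and 10 lower without OsNAC6 replicate 1, and 14 higher and 6 lower without OsNAC6 replicate 2. Os07t0677100-01 was near 0 FPKM in OsNAC6 roots, with 0.238 and 0.221 FPKM in OsNAC6 roots, against 7.13 and 7.03 FPKM in OsNAC5 roots (log2 difference -2.72 ± 0.16 SE, adjusted p = 0.000186), while NT roots held 6.08 and 7.09 FPKM. Os10t0109300-01 had 17.9 and 10.6 FPKM in OsNAC6 roots, against 44.3 and 57.0 FPKM in OsNAC5 roots. In the other direction Os02t0240100-01 had 26.5 and 20.3 FPKM in OsNAC6 roots, against 5.40 and 6.69 FPKM in OsNAC5 roots (log2 difference 1.79 ± 0.16 SE, adjusted p = 0.00184), and 4.00 and 3.88 FPKM in NT roots. In the lignin pathway 7 of 73 transcripts were lower and 3 were higher (median -0.17), and the counts were 3 higher and 8 lower without OsNAC6 replicate 1, and 7 higher and 6 lower without OsNAC6 replicate 2. In all, 13.7% of the lignin pathway list was called. Cinnamoyl-CoA reductases, which make lignin aldehydes, differed among themselves. Os02t0808800-01 had 2.41 and 2.09 FPKM in OsNAC6 roots, against 10.2 and 10.5 FPKM in OsNAC5 roots (log2 difference -1.80 ± 0.10 SE, adjusted p = 0.00016). Os02t0811800-01 had 10.6 and 11.1 FPKM in OsNAC6 roots, against 3.87 and 4.27 FPKM in OsNAC5 roots (log2 difference 1.22 ± 0.10 SE, adjusted p = 0.000992). NT roots, with 30.2 and 31.6 FPKM and 27.5 and 29.5 FPKM, were above both lines for both transcripts. The phenylalanine ammonia-lyases Os05t0427400-00 (-0.86) and Os02t0626600-00 (-0.83), which start the pathway, and 3 laccases were lower, while the laccase Os11t0708100-01 (0.67) and the dirigent protein Os07t0643800-01 (1.34) were higher.

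Of the wall polysaccharide lists, 10% of cellulose synthase and 20% of xyloglucan endotransglucosylase transcripts were called, against 2.72% over all tested transcripts, from few members each. Cellulose synthases had 3 lower of 30 and none higher (2 higher at an unadjusted p under 0.05), but without OsNAC6 replicate 1 no member was called. Os07t0252400-01, cellulose synthase 8, had 28.6 and 38.2 FPKM in OsNAC6 roots, against 57.7 and 56.0 FPKM in OsNAC5 roots (log2 difference -0.76 ± 0.17 SE, adjusted p = 0.0464). Xyloglucan endotransglucosylases, which cut and rejoin wall xyloglucan, had 2 higher and 1 lower of 15. The lower one, Os04t0604300-01, had 2.33 and 1.25 FPKM in OsNAC6 roots, against 10.6 and 11.1 FPKM in OsNAC5 roots (log2 difference -2.11 ± 0.22 SE, adjusted p = 0.0034). Expansins, which loosen the wall, had 1 higher and 1 lower of 50 (median 0.04), Os10t0542400-01 (0.60), which was under 1 FPKM in every library of both lines, and the beta-expansin Os10t0555900-02 (-0.83).

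Most called lipid transfer proteins, chitinases and protease inhibitors were higher. Called were 12% of lipid transfer proteins, 11.8% of chitinases and pathogenesis-related proteins and 11.8% of protease inhibitors, against 2.72% over all tested transcripts. Lipid transfer proteins, which carry lipids to the cell surface, had 6 higher and none lower of 50 (median 0.19; 4 lower at an unadjusted p under 0.05), and the counts were 4 higher and 0 lower without OsNAC6 replicate 1, and 10 higher and 0 lower without OsNAC6 replicate 2. Os10t0505700-01, a nonspecific lipid transfer protein, had 10.8 and 10.3 FPKM in OsNAC6 roots, against 2.07 and 2.89 FPKM in OsNAC5 roots (log2 difference 1.74 ± 0.18 SE, adjusted p = 0.00313). Os01t0822900-03 had 14.0 and 9.16 FPKM in OsNAC6 roots, against 3.03 and 3.97 FPKM in OsNAC5 roots, with NT roots at 0.265 and 0.145 FPKM, below both lines. The most abundant was Os05t0160300-01, with 2309.7 and 2052 FPKM in OsNAC6 roots, against 1422 and 1422 FPKM in OsNAC5 roots. Chitinases and pathogenesis-related proteins had 7 higher and 2 lower of 76 (median 0.07), and the counts were 5 higher and 2 lower without OsNAC6 replicate 1, and 9 higher and 1 lower without OsNAC6 replicate 2. A thaumatin-like protein, Os03t0663400-02, had 339 and 234 FPKM in OsNAC6 roots, against 75.7 and 116 FPKM in OsNAC5 roots (log2 difference 1.57 ± 0.26 SE, adjusted p = 0.0197), and another, Os01t0839900-01, had 155 and 129 FPKM in OsNAC6 roots, against 65.0 and 67.4 FPKM in OsNAC5 roots (log2 difference 1.08 ± 0.10 SE, adjusted p = 0.00191). Chitinase 8, Os10t0543400-00, was lower (-1.36). Protease inhibitors had 3 higher and 1 lower of 34. The Bowman-Birk inhibitor Os01t0127600-01, which blocks serine proteases, had 1361 and 1269.8 FPKM in OsNAC6 roots, against 724 and 751 FPKM in OsNAC5 roots (log2 difference 0.83 ± 0.11 SE, adjusted p = 0.00828). NB-ARC receptors, the intracellular class of plant immunity, had 10 lower and 2 higher of 271 (4.43% called, median -0.10), led by Os04t0514600-00 (-1.06).

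**Figure D4:**
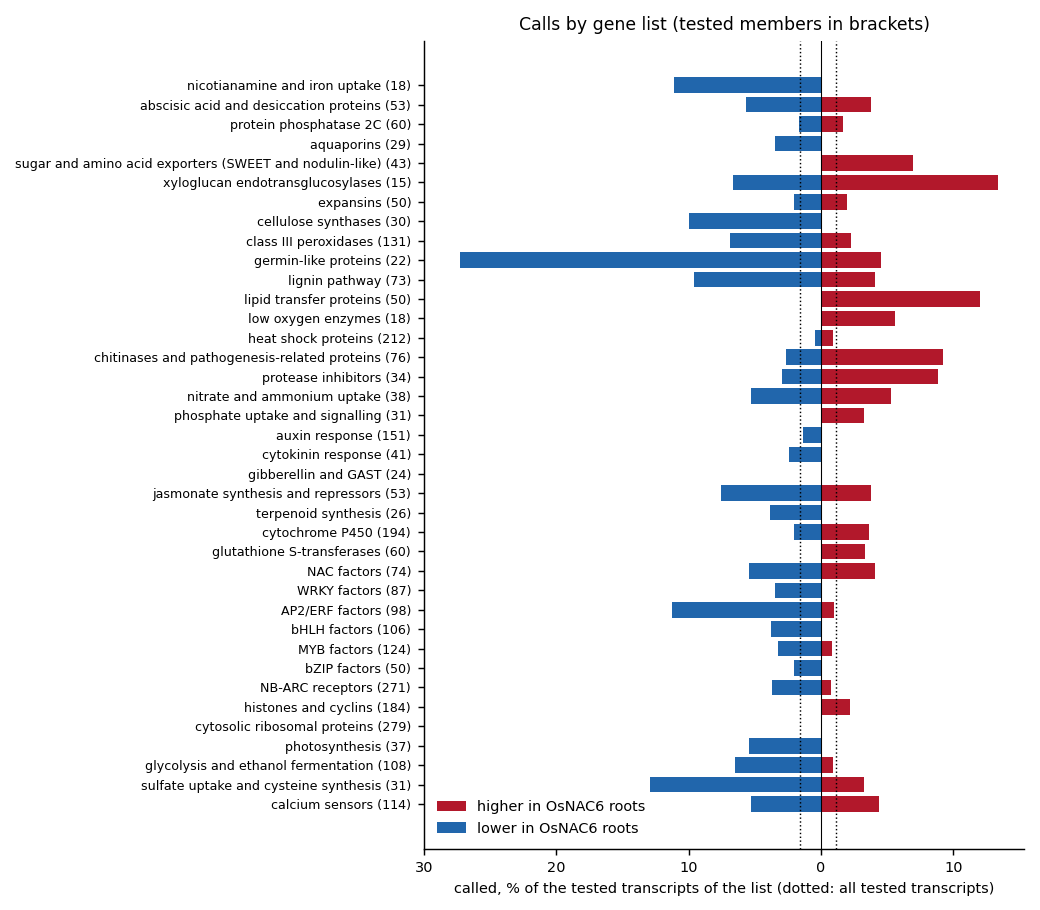
Share of the tested transcripts of each gene list called higher (right) or lower (left) in OsNAC6 roots, in percent; the number tested stands beside each name and the dotted lines mark the shares over all tested transcripts, 1.16% and 1.56%. Germin-like proteins reach furthest to the left, lipid transfer proteins have no lower call, and ribosomal proteins have no call.

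Among hormone and signalling lists, 9.43% of abscisic acid and desiccation, 11.3% of jasmonate and 9.65% of calcium sensor transcripts were called, against 2.72% over all tested transcripts, and the auxin, cytokinin and gibberellin lists were below that share. Abscisic acid and desiccation proteins had 2 higher and 3 lower of 53. Besides OsABI5, the LEA-like protein Os05t0542500-02, of a class that accumulates in drying tissue, had 3.58 and 3.51 FPKM in OsNAC6 roots, against 12.7 and 14.5 FPKM in OsNAC5 roots (log2 difference -1.68 ± 0.18 SE, adjusted p = 0.00387). LEA3 family protein Os01t0314800-01 was higher, with 161 and 133 FPKM in OsNAC6 roots, against 86.2 and 102 FPKM in OsNAC5 roots (log2 difference 0.64 ± 0.14 SE, adjusted p = 0.0462), a call that was lost without OsNAC6 replicate 1. For jasmonate, 4 of 53 transcripts were lower and 2 were higher. Among the lower ones were Tify and ZIM proteins, the repressor class of jasmonate signalling. Os03t0181100-01 had 28.3 and 22.8 FPKM in OsNAC6 roots, against 50.4 and 58.7 FPKM in OsNAC5 roots (log2 difference -1.07 ± 0.16 SE, adjusted p = 0.0119). Higher were the lipoxygenases Os10t0361000-01 (1.15) and Os03t0738600-01 (0.80), enzymes of the first step of jasmonate synthesis, neither of them called without OsNAC6 replicate 1, when the list had 0 higher. Ethylene synthesis showed in a run of neighbours, described with the runs. Calcium sensors, the third list added after the values had been seen, had 5 higher and 6 lower of 114. Calmodulin Os01t0949500-01 had 26.1 and 29.0 FPKM in OsNAC6 roots, against 41.7 and 47.9 FPKM in OsNAC5 roots. Auxin response had 2 lower of 151 and none higher, and cytokinin response had 1 lower of 41. No gibberellin transcript of 24 was called by limma, and 5 had an unadjusted p under 0.05. Cytochrome P450 transcripts had 7 higher and 4 lower of 194, led by Os02t0503900-01 with 10.8 and 10.4 FPKM in OsNAC6 roots, against 0.555 and 0.677 FPKM in OsNAC5 roots (log2 difference 2.85 ± 0.13 SE, adjusted p = 5.6e-05). A SWEET-type sugar transporter, Os05t0426000-01, had 5.87 and 4.94 FPKM in OsNAC6 roots, against 2.00 and 2.29 FPKM in OsNAC5 roots (log2 difference 1.02 ± 0.12 SE, adjusted p = 0.00437), and 0.0327 and 0.042 FPKM in NT roots.

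Heat shock proteins (1.42% called) and histones and cyclins (2.17% called) were near or below the 2.72% over all tested transcripts. Heat shock proteins had 2 higher and 1 lower of 212, histones and cyclins 4 higher of 184. None of 279 cytosolic ribosomal proteins was called by limma, although 229 of them (82.1%) had a positive difference, against 45.9% of all tested transcripts, and their median was 0.15. The OsNAC6 libraries lay above the OsNAC5 libraries without overlap for 49.8% of them, against 19.9% of all tested transcripts. At an unadjusted p under 0.05, 66 (23.7%) were above 0 and 5 below, against 8.97% above 0 over all. Without OsNAC6 replicate 2, 17 of them were higher and 4 lower.

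Neighbouring loci were called in the same direction in 10 runs of 3 or more tested loci in the order of their identifiers. Among these, 4 germin-like and cupin proteins stood side by side on chromosome 12. Os12t0154900-00, germin-like protein 12-3, had 2.16 and 2.68 FPKM in OsNAC6 roots, against 9.24 and 8.24 FPKM in OsNAC5 roots (log2 difference -1.51 ± 0.16 SE, adjusted p = 0.003), and 19.7 and 23.7 FPKM in NT roots. The others of the run had differences between -1.18 and -0.84. On chromosome 7, 4 peroxidases were lower in a row. The most abundant of them, Os07t0676900-01, had 178 and 136 FPKM in OsNAC6 roots, against 338 and 356 FPKM in OsNAC5 roots (log2 difference -1.15 ± 0.15 SE, adjusted p = 0.00765), while Os07t0677100-01 was the one near 0 FPKM in OsNAC6 roots. On chromosome 5, the 1-aminocyclopropane-1-carboxylate oxidases Os05t0149300-00 (-0.98) and Os05t0149400-01 (-1.38), which make ethylene, were lower beside a non-protein coding transcript. Os05t0149400-01 had 4.99 and 8.34 FPKM in OsNAC6 roots, against 17.8 and 19.3 FPKM in OsNAC5 roots.

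Higher runs were on chromosomes 6, 7 and 9. Of 4 conserved hypothetical proteins on chromosome 6, Os06t0513943-01 had 256 and 277 FPKM in OsNAC6 roots, against 142 and 136 FPKM in OsNAC5 roots (log2 difference 0.94 ± 0.15 SE, adjusted p = 0.0188), and 234 and 193 FPKM in NT roots, nearer to the OsNAC6 level. On chromosome 7, an isocitrate lyase transcript, Os07t0529000-01, an enzyme of the glyoxylate cycle, had 5.54 and 3.63 FPKM in OsNAC6 roots, against 1.07 and 1.35 FPKM in OsNAC5 roots (log2 difference 1.32 ± 0.21 SE, adjusted p = 0.0166), next to a defence-responsive protein, Os07t0529600-02 (0.68), and a xyloglucan endotransglucosylase, Os07t0529700-01 (0.64). The difference of the defence-responsive locus turned negative when its transcripts were summed, so this run rests on a single transcript there. Near the start of chromosome 3 in the identifier order, 2 physical impedance induced proteins and a QLTG-3-1-like protein formed another lower run. Os03t0103100-01 had 109.7 and 86.2 FPKM in OsNAC6 roots, against 250.4 and 299.6 FPKM in OsNAC5 roots (log2 difference -1.48 ± 0.14 SE, adjusted p = 0.00191), and 578 and 594 FPKM in NT roots.

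**Figure D5:**
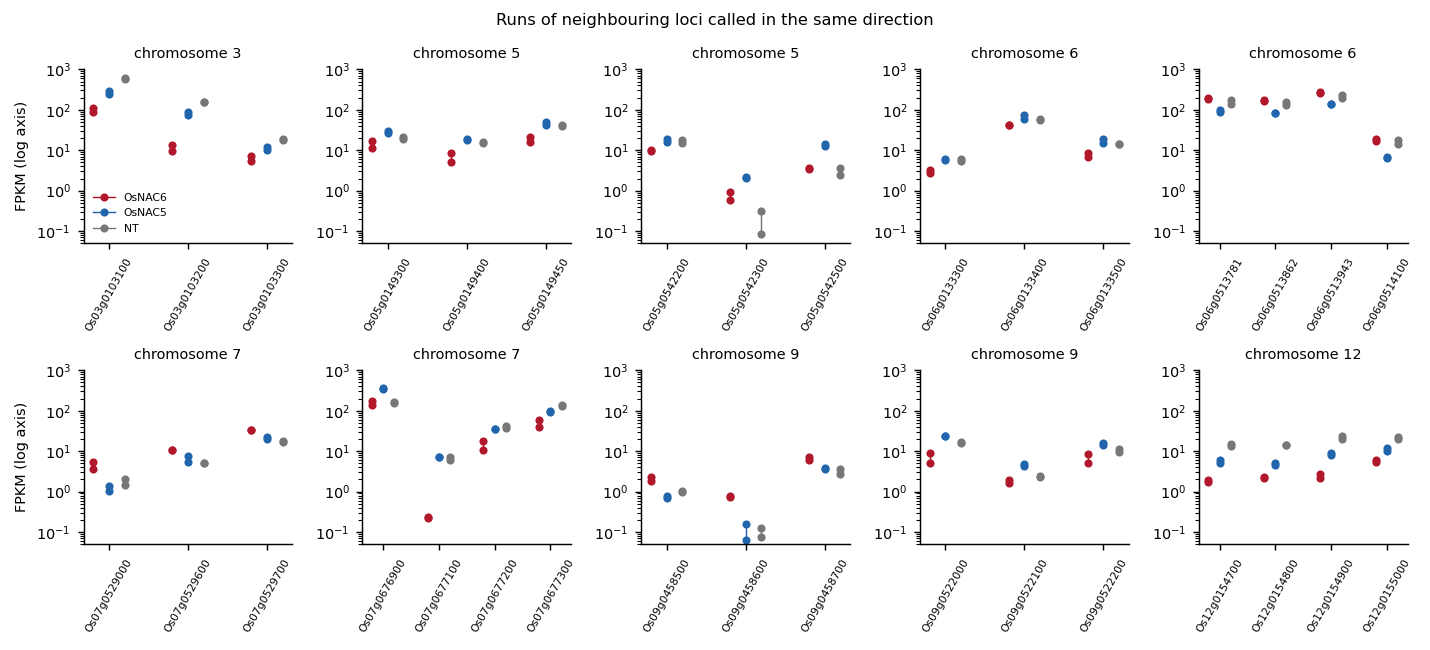
FPKM on a common log axis for the loci of the 10 runs of neighbouring loci called in the same direction; points are the libraries of OsNAC6 (red), OsNAC5 (blue) and NT (grey) roots. The OsNAC6 points lie below the OsNAC5 points in 7 of the runs and above them in 3.

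At 2 loci, transcripts of the same gene were called in opposite directions. At Os06g0716000, which encodes a DUF668 protein, transcript Os06t0716000-02 had 3.92 and 3.03 FPKM in OsNAC6 roots, against 0.000599 and 0.612 FPKM in OsNAC5 roots (log2 difference 1.81 ± 0.28 SE, adjusted p = 0.0154), and transcript Os06t0716000-01 had 4.10 and 4.89 FPKM in OsNAC6 roots, against 9.12 and 8.23 FPKM in OsNAC5 roots (log2 difference -0.82 ± 0.14 SE, adjusted p = 0.0205). At Os08g0357000, a wound-responsive protein, Os08t0357000-01 had 17.8 and 15.8 FPKM in OsNAC6 roots, against 9.36 and 8.36 FPKM in OsNAC5 roots (log2 difference 0.85 ± 0.16 SE, adjusted p = 0.028) and Os08t0357000-02 had 21.1 and 18.6 FPKM in OsNAC6 roots, against 30.8 and 29.9 FPKM in OsNAC5 roots (log2 difference -0.59 ± 0.09 SE, adjusted p = 0.0123). Neither gene was called when the transcripts were summed, with adjusted p = 0.42 for the first and 0.569 for the second. How fragments were shared between transcripts was the estimate of the authors' software.

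The study's summary table of 121 selected target genes was read against the same comparison. These genes were picked as bound and raised in at least 1 of the transgenic lines, so they are not the full set of bound loci. The marks of that table were set on these libraries, so a direction that follows them is not independent evidence. Of 31 transcripts marked as raised in OsNAC6 roots but not in OsNAC5 roots, 6 were higher and none lower (median 0.27). The called share was 19.4%, against 2.72% over all tested transcripts. A beta-1,3-glucanase, Os01t0944700-01, which degrades callose and fungal glucans, had 4.97 and 4.14 FPKM in OsNAC6 roots, against 0.127 and 0.26 FPKM in OsNAC5 roots (log2 difference 2.22 ± 0.11 SE, adjusted p = 8.13e-05), and 0.715 and 0.948 FPKM in NT roots. A trehalose-6-phosphate synthase, Os02t0790500-03, had 21.9 and 22.6 FPKM in OsNAC6 roots, against 11.1 and 7.97 FPKM in OsNAC5 roots (log2 difference 1.16 ± 0.17 SE, adjusted p = 0.0127). The other transcripts of this locus were not called. The most abundant, Os02t0790500-02, leaned the other way, with 28.5 and 23.6 FPKM in OsNAC6 roots, against 33.9 and 31.3 FPKM in OsNAC5 roots. Of 23 transcripts marked as raised in OsNAC5 roots but not in OsNAC6 roots, 7 were lower and 1 was higher (34.8% called, median -0.32). They were led by OsABI5. A cupredoxin domain protein, Os06t0681200-01, had 2.95 and 3.07 FPKM in OsNAC6 roots, against 8.55 and 9.10 FPKM in OsNAC5 roots (log2 difference -1.29 ± 0.13 SE, adjusted p = 0.00313), and an aconitate hydratase, Os03t0136900-01, had a difference of -0.89. The exception was Os03t0146100-05, a transcript that was higher, with 81.7 and 63.9 FPKM in OsNAC6 roots, against 26.6 and 33.2 FPKM in OsNAC5 roots (log2 difference 1.26 ± 0.23 SE, adjusted p = 0.0288). The more abundant Os03t0146100-01 of this locus, a tonoplast intrinsic protein, was not called. It had 133 and 94.3 FPKM in OsNAC6 roots, against 123 and 154 FPKM in OsNAC5 roots. Listed genes marked as bound in these lines and raised in neither have their raised mark in OsNAC9 or OsNAC10 roots. Of 60 such transcripts, 2 were higher and none lower (3.33% called, near the share over all tested transcripts). Among them was Os05t0247100-01, a glycosyl hydrolase of family 18, with 206 and 198 FPKM in OsNAC6 roots, against 107 and 83.4 FPKM in OsNAC5 roots. Transcript Os05t0247100-02 of the same locus was not called, with 249 and 176 FPKM in OsNAC6 roots, against 171 and 204 FPKM in OsNAC5 roots.

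Some transcripts had no place in the test because a library listed them at 0. In 10 cases both OsNAC5 libraries were at 0 and both OsNAC6 libraries at 1 FPKM or more, and in 4 cases the reverse held. A cysteine endopeptidase, Os01t0907600-00, a protein-degrading enzyme, had 13.8 and 11.8 FPKM in OsNAC6 roots and was listed at 0 in both OsNAC5 libraries. The non-protein coding transcript Os02t0688800-00 was listed at 0 in both OsNAC6 libraries and had 11.1 and 2.33 FPKM in OsNAC5 roots. Os12t0608666-00, also non-protein coding, was listed at 0 in both OsNAC6 libraries, against 1.79 and 3.73 FPKM in OsNAC5 roots. No fold is given for these, since a listed 0 may be a failed estimate.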

How the data were processed

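Roots were profiled by RNA-Seq in 10 libraries, 5 groups of 2, of which the OsNAC6 and OsNAC5 libraries are compared here. Groups and replicate numbers came from the sample titles. The deposited values are FPKM, which the authors obtained per annotated transcript from reads trimmed, cleared of PCR duplicates and mapped with TopHat to IRGSP 1.0, per the study's methods; versions and the use of strand in counting were not given in the sources used here. The deposited table held 41635 transcripts of 37869 loci with their descriptions. Absolute read numbers per library are unknown from the files, so no counting interval is given.

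Transcripts above 0 FPKM in all 10 libraries were kept, which left out 8457. Values were analysed as log2(FPKM + 1) in limma 3.58.1 with R 4.3.3 (lmFit, 5 groups sharing 1 spread, eBayes with trend, two-sided, Benjamini-Hochberg over all tested transcripts). The script was tested on simulated data. Replicate numbers were not used as a block. Alternatives were the pseudocount, the filter, scaling, library weights, summing per locus, the replicate block, the libraries in the fit, leaving out each library and the call rule.

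Gene lists were found by words in the descriptions: 38 lists, 3 of them added after the values had been seen; entries that name another protein were dropped on their description. The members and lists were chosen with earlier results of these data known. Named transcripts were the NAC genes, OsABI5 and RCc3, the 10 largest called differences each way with a mean of at least 5 FPKM, the 2 largest each way per list (at least 1 FPKM), the 3 largest each way on opposite sides of NT, runs of at least 3 neighbouring loci, opposite transcripts of a locus, transcripts listed at 0 in a line, and bound loci; further called members of a list were named after their values were seen.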

Additional observations from a re-analysis of the deposited data

Results flagged for a closer look

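Among all tested transcripts, 8 higher and 6 lower ones were called between the lines and also called against NT in opposite directions, so that NT lay between OsNAC6 and OsNAC5 roots. Of these, 8 are described above. The contrasts share the NT libraries. Above NT in OsNAC6 roots and below it in OsNAC5 roots were Os07t0442800-01 (log2 difference between the lines 6.00), Os02t0765925-00 (4.16), the germin-like Os08t0189100-01 (4.03), the nitrite reductase-like Os02t0765900-00 (4.03) and the beta-1,3-glucanase Os01t0944700-01 (2.22). Below NT in OsNAC6 roots and above it in OsNAC5 roots were the OsNAC5 gene Os11t0184900-02 (-2.94), the alanine aminotransferase Os03t0183600-00 (-3.80) and Os06t0200800-01 (-2.37).

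Among the transcripts that the test left out, 10 had at least 1 FPKM in both OsNAC6 libraries and 0 in both OsNAC5 libraries. The 3 with the highest means in OsNAC6 roots, all above the NT level, are given here. The means in OsNAC6 roots were 31.7 FPKM for the non-protein coding Os01t0180500-00, 12.8 FPKM for the cysteine endopeptidase Os01t0907600-00 and 11.9 FPKM for the hypothetical Os04t0208450-01. In NT roots Os01t0180500-00 and Os04t0208450-01 were listed at 0 and Os01t0907600-00 had 0.349 and 0.144 FPKM.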

How the results depend on the processing

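With 2 libraries per line, the number of calls depended on how the spread was estimated. With library weights by group, 162 transcripts were higher and 209 lower, and all 371 were among the 901. With only the 4 libraries in the fit, 19 were higher and 11 lower, 28 of these 30 among the 901. Leaving out 1 library gave between 138 and 1010 higher and between 130 and 1113 lower transcripts. The call rule moved the counts to 670 higher and 921 lower at an unadjusted p under 0.05 and 1.5 fold, to 144 and 135 at 2 fold, and to 618 and 850 with no fold threshold. Pseudocount, filter, trend, centring, quantile normalization and summing per locus kept both counts within 1.5 times. Centring gave 473 higher and 449 lower, and the median of all tested transcripts shifted by less than 0.1 under it.

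The OsNAC6 gene, with a log2 difference of 0.67, was no longer called with only the 4 libraries (0.67, adjusted p = 0.163), nor without either OsNAC5 library (0.62 and 0.72). The OsNAC5 gene was called under every alternative run. Summing per locus turned 3 transcripts round: Os07t0529600-02 to -0.23, Os06t0716000-02 to -0.15 and Os08t0357000-01 to -0.10, the last 2 at loci where the other transcript was called the other way; for the first the cause was not tested.

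The deviations of same-numbered OsNAC6 and OsNAC5 libraries had a correlation of -0.24, and nothing in the labels ties the numbers to a batch. With the replicate block 289 transcripts were higher and 369 lower, and with the OsNAC6 numbers crossed, chosen after seeing the data, 460 and 657.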
